A study of Mus musculus with 17 samples.

Results

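The genes described here are the mitochondrial ribosomal protein genes of mouse neuroblastoma, taken as every gene whose single symbol in the array annotation starts with Mrpl or Mrps and continues with a number. There were 76 of them among 18193 genes, 47 with an Mrpl symbol (large subunit) and 29 with an Mrps symbol (small subunit). They were measured in 17 primary tumors of TH-MYCN mice, each on its own Affymetrix whole-genome mouse array. The mice carried the TH-MYCN transgene, in which MYCN is expressed from a rat tyrosine hydroxylase promoter in cells of the neural crest lineage, and per the study's methods they were hemizygous and of an inbred strain background. All tumors formed a single group with no transgene-free counterpart, and their labels name no treatment. The data therefore hold no contrast between conditions, and every comparison below runs over genes or over tumors. Tumors are named by the submitters' own labels, such as mad548.

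Mitochondria have their own ribosomes, which translate the few mRNAs encoded by mitochondrial DNA into core subunits of the respiratory chain and ATP synthase. The RNA of these ribosomes comes from mitochondrial DNA, whereas all their proteins are encoded in the nucleus, made in the cytosol and imported. Some of the proteins descend from those of bacterial ribosomes and the rest were added during the evolution of mitochondria. Their genes depend on factors such as NRF1 and the ETS factor GABP, and MYC proteins are known as drivers of ribosome production in growing cells.

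By the number in the symbol alone, 43 members were classed as homologues of bacterial ribosomal proteins (27 Mrpl up to 36, 16 Mrps up to 21). The other 33 were classed as specific to mitochondria (20 Mrpl, 13 Mrps). These classes were not checked protein by protein, so single members may be misplaced. A symbol does not always give the subunit or complex. Mrps18a and Mrps30 sit in the large subunit of mammalian mitochondrial ribosomes, and the product of Mrps36 is now assigned to the 2-oxoglutarate dehydrogenase complex. Below, these genes stay in the groups given by their symbols. The members lie on 17 chromosomes, with the largest number, 11, on chromosome 11. Of the 78 protein-coding genes of this kind in the mouse gene table, 2 (Mrpl30 and Mrpl53) had no probe set with a single symbol here. The array had 156 probe sets for the 76 members, with 1 probe set for 34 members and several for 42, and each gene was represented by its probe set of highest mean.

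The windows at the start sites of 4 members are shown because these genes carry the patterns described below. Mrpl27 passed the test against 2 related measures of the tumors, and Mrps18a has matches to 4 kinds of motif. Mrpl22 is a close follower of the other members with a match to NRF1 and to ETS letters. Mrps6 did not follow them and also has an NRF1 match. Closer followers lack both motifs: the window of Mrps31 has only CCAAT, and those of Mrpl46 and Mrpl40 have no match. A link between motifs and the order of tumors was not tested. Each printed window runs from 250 bases before to 50 bases after the start site, 5′ to 3′ on the gene's strand, from RefSeq on GRCm38.p6. Capitals mark matches to the motifs that were searched.
Mrpl27, chr11:94653541-94653840, + strand: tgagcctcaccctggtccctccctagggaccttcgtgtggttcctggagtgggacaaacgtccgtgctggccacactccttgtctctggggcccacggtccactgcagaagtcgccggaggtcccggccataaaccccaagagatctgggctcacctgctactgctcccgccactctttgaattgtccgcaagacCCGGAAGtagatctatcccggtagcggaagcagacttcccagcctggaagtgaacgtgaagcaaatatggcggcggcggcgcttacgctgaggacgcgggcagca
Mrps18a, chr17:46110754-46111053, + strand: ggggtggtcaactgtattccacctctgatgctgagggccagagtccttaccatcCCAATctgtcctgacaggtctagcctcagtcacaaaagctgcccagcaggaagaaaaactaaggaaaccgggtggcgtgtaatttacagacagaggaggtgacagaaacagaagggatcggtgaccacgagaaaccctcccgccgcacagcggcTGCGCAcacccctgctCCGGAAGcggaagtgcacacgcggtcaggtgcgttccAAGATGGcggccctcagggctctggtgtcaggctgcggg
Mrpl22, chr11:58171414-58171713, + strand: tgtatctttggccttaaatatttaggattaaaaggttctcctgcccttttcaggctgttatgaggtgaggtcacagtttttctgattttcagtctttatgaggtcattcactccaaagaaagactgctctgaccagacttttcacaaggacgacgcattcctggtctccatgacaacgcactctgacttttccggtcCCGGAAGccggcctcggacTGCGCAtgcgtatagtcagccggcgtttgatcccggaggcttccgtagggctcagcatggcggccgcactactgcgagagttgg
Mrps6, chr16:92058086-92058385, + strand: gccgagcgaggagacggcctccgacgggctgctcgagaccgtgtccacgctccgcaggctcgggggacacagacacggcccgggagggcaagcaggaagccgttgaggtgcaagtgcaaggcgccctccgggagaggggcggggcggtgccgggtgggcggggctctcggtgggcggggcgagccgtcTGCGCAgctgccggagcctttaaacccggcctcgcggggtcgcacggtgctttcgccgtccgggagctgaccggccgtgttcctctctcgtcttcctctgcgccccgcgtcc

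Windows of this kind were found for 67 of the 76 members (73 windows, since some genes have several start sites). The motifs searched on both strands were the E-box CACGTG, the NRF1 core TGCGCA, the ETS letters CCGGAAG, the YY1 letters AAGATGG and CCAAT, none of which shares its match with another in the windows printed above. Genes were counted once, as holding a motif where any of their windows did, because the 3 members with several windows (Mrpl48, Mrpl2 and Mrps16) have start sites close together that can share a match. The NRF1 core was present in 21 of 67 members (31.3%), against 8.79% of all 27025 genes with a window and 19.8% of 3760 genes in the top quartile of mean level. ETS letters were present in 25 members (37.3%), against 9.93% of all genes and 24.2% of those of the top quartile. For YY1 the shares were 19.4% of members, 7.28% of all genes and 10.2% of the top quartile. The E-box, the motif bound by MYC proteins with MAX, was in 5 members (7.46%: Mrpl2, Mrpl20, Mrpl36, Mrpl37 and Mrps18c), against 8.09% of all genes and 13.5% of the top quartile. CCAAT was in 38.8% of members, 41.1% of all genes and 42.8% of the top quartile. Counted per window, the E-box was in 9.59% of member windows, 7.15% of all windows and 11.4% of those of the top quartile. CCAAT was then in 39.7%, 37.41% and 37.25%. For these 2 motifs the order of members and all genes thus turned with the way of counting. At least 2 kinds of motif were present in 27 members and none in 12. These are matches of letters and carry no test.

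The values are log2 RMA expression values, so a difference of 1 is a doubling of signal. Array medians lay between 6.28 and 6.51. The tumors carried the markers of their labelled origin: 13 of 14 measured sympathoadrenal markers had a mean in the top quartile of all genes. Among them Th, tyrosine hydroxylase of catecholamine synthesis, ran from 11.54 to 14.33, and Chgb, a protein of secretory granules, from 14.10 to 14.75. RNA of other tissues was present in single tumors. A set of 10 skeletal muscle markers averaged 12.83 in mad553, with 11.01 for mad550 and 10.43 for mad549, and 5.87 to 6.83 in the other tumors. The liver list reached 9.99 in mad562 and 7.39 in mad559, and the mean of 4 adipose markers ran from 6.08 in mad554 to 9.47 in mad548. In whole tumors, a smaller share of cells of a type and less RNA per cell cannot be told apart.

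The mitochondrial ribosomal protein genes were measured at high levels throughout. The median of their mean values over tumors was 10.55, against 7.54 for all genes. Of the 76 members, 61 (80.3%) had a mean in the top quartile of all genes (at or above 9.68) and 24 (31.6%) at or above the 90th percentile (11.05). None had a mean below the median gene, and all 76 lay above the array median in every tumor, with single values between 7.71 and 12.87. The probe sets differ in how well they hybridize, so these are levels of detection and give no order of abundance among the genes.

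The members of highest mean were Mrpl39 (12.72), Mrps6 (12.19) and Mrpl51 (12.08). The other end was formed by Mrpl54 (8.15), Mrps27, which encodes a pentatricopeptide repeat protein of the small subunit (8.51), and Mrpl14, a homologue of bacterial L14 (8.59). These 3 were among the 15 members outside the top quartile, whose means ran up to 9.65 in Mrpl10. The counterparts of 2 well known bacterial proteins were in the top quartile. Mrpl12, the homologue of the bacterial stalk protein L7/L12, had a mean of 11.65 ± 0.14 (SD, n = 17 tumors). Mrps12, the homologue of the S12 protein of the decoding centre, had a mean of 10.79 ± 0.16 (SD, n = 17 tumors).

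**Figure D1:**
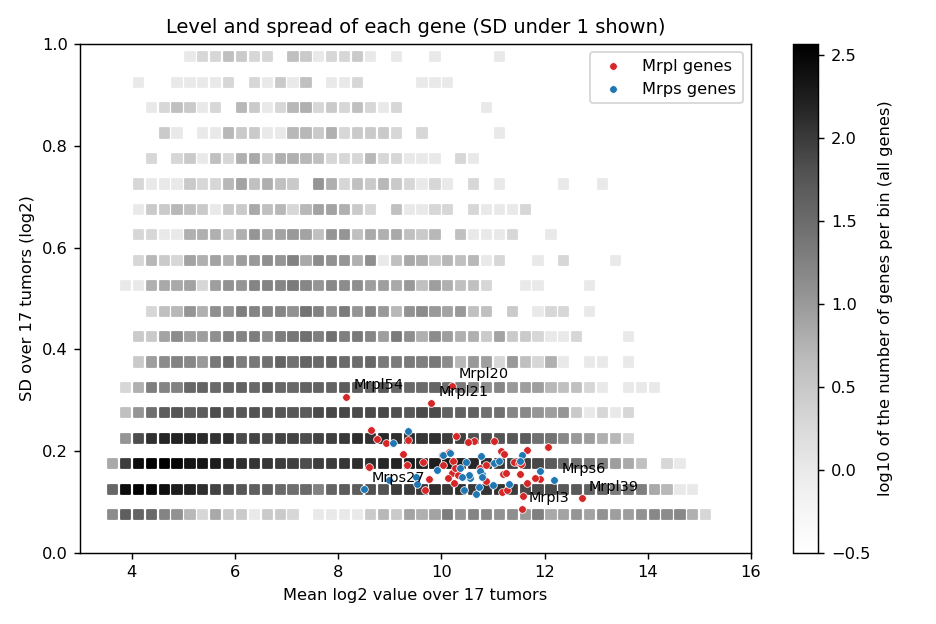
Mean log2 value (x axis) and SD over the 17 tumors (y axis, log2) of each gene, with the density of all genes in gray (log10 of genes per bin, genes with an SD under 1) and the members as colored points. The members lie to the right, with means of 8.15 to 12.72, and have SDs of 0.09 to 0.33.

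The level of a member was much the same in all tumors. The median SD over tumors was 0.17 for the members, against 0.19 for all genes and 0.17 for genes of the top quartile, so the spread of the members was close to that of other genes of high level. Only 20 of the 76 had an SD above the median gene. The median distance between a member's lowest and highest tumor was 0.63 on the log2 scale (1.55-fold), and it exceeded 1 in 3 members, Mrpl54, Mrpl21 and Mrps36.

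The steadiest members had SDs near 0.1. Mrpl3, homologue of a bacterial protein near the peptidyl transferase center, had a lowest value of 11.36, a median of 11.55 and a highest value of 11.73 (SD 0.09). Mrpl39 had 12.52, 12.73 and 12.87 at the same points (SD 0.11). Mrpl15 ran from 11.33 over a median of 11.61 to 11.74 (SD 0.11), and Mrps7 from 10.48 over 10.67 to 10.89 (SD 0.12). In these 4 genes the lowest and the highest of the 17 tumors lay at most 0.41 apart on the log2 scale.

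The widest spread belonged to Mrpl20, homologue of a bacterial protein that binds the large ribosomal RNA early in assembly. It had a lowest value of 9.76 in mad560, a median of 10.19 and a highest value of 10.73 in mad548 (SD 0.33). Mrpl54 had 7.71 in mad553, a median of 8.10 and 8.96 in mad548 (SD 0.31). For Mrpl54 the top tumor stood apart, since the next highest value was 8.46. Mrpl21 had 8.97 in mad562, a median of 9.80 and 10.21 in mad552 (SD 0.29). Here a single low tumor made much of the spread: the next lowest value was 9.54, and the SD was 0.21 without mad562, the tumor with the highest liver and macrophage lists. The part of those cells in the low value was not tested.

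Mrpl1, homologue of the bacterial L1 stalk protein, had a lowest value of 8.32, a median of 8.57 and a highest value of 9.07 (SD 0.24). Its values left a gap: mad548, mad549, mad558, mad559 and mad563 lay between 8.82 and 9.07, and the other 12 tumors between 8.32 and 8.61. A second probe set of Mrpl1 above the array median did not show the same order of tumors (r = -0.22 with the first over 17 tumors). Mrps25 ran from 8.97 over a median of 9.44 to 9.66 (SD 0.24), and Mrpl17, a homologue of bacterial L17, from 9.88 over 10.29 to 10.76 (SD 0.23).

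**Figure D2:**
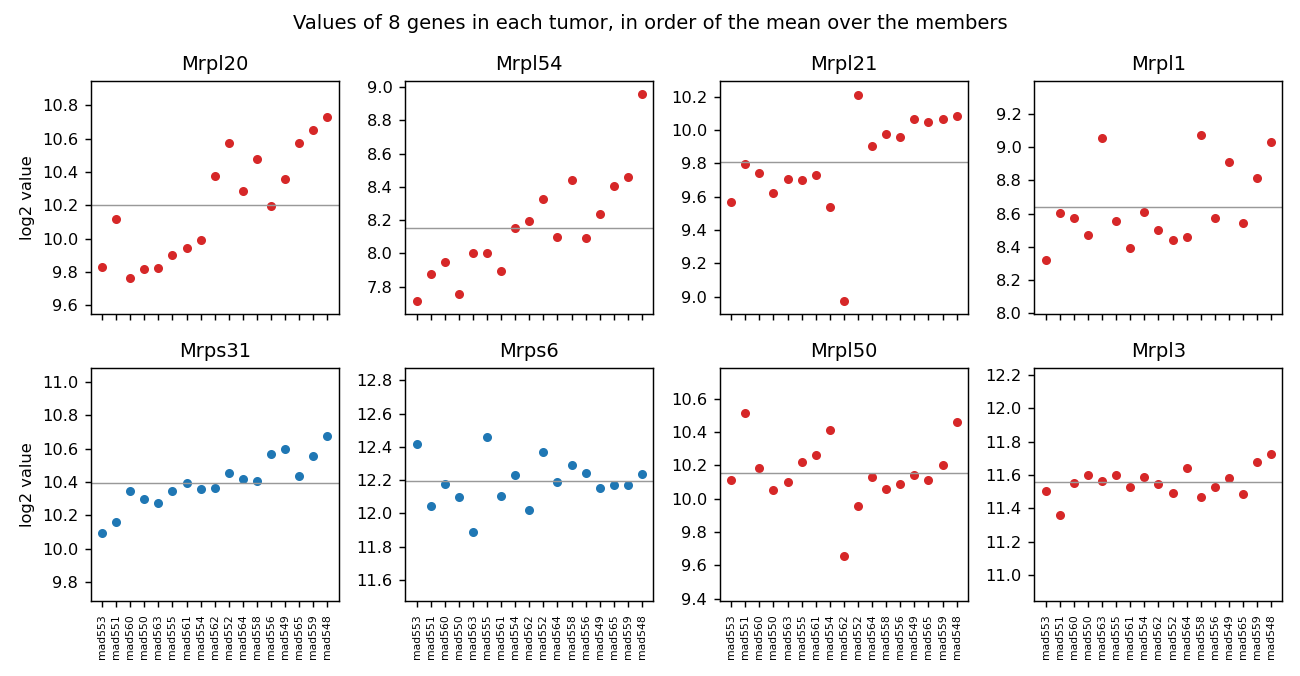
Log2 values of 8 members in each of the 17 tumors (points, one panel per gene, red for Mrpl and blue for Mrps), with tumors in order of the mean over all members and a gray line at the gene's mean. Mrpl54, Mrpl20 and Mrps31 climb toward mad548, Mrpl21 has a single low value of 8.97 in mad562, and Mrps6 and Mrpl50 show no such order.

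Averaged over the 76 members, the tumors differed little. The mean over members was lowest in mad553 (10.30) and highest in mad548 (10.74), with a median of 10.54, an SD of 0.11 and a distance of 0.44 between the ends (1.35-fold). The difference was spread over most of the genes. In mad548, 70 of the 76 members lay above their own median over tumors, and 35 had their highest value there. By contrast, only 5 members were above their median in mad553 and 5 in mad551, and 25 members had their lowest value in mad553. High counts were also seen in mad549 (64), mad559 (61) and mad565 (58), and low ones in mad550 (10) and mad560 (13).

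The Mrpl and the Mrps members moved alike. The mean of the Mrpl members ran from 10.33 to 10.77 and that of the Mrps members from 10.26 to 10.69. Both were lowest in mad553 and highest in mad548. The same tumors were at the ends for the members classed as bacterial homologues (10.38 to 10.79) and as mitochondria-specific (10.21 to 10.67). Over the same arrays the mean of all genes ran from 7.57 in mad551 to 7.74 in mad554. It was 7.58 in mad553 and 7.72 in mad548, each next to those ends. In mad559, a tumor of high member mean, it was also 7.58. The tumor of lowest member mean, mad553, had the highest muscle list, and that of highest member mean, mad548, had the highest adipose list. Other tumors did not pair in this way. In mad549 the muscle list was 10.43 and the member mean 10.62, and in mad551 they were 6.56 and 10.35. The mean of 8 fibroblast markers was also highest in mad553 (9.82). The part of these tissues in the member mean was not tested. Of the 8 tumors with a member mean above the median, 6 were also above the median of the adipose list. That count was not tested and rests in part on values next to the medians. The adipose list was 7.187 in mad549, against a median of 7.186. The member mean was 10.5351 in mad552, against 10.535 in mad562, the tumor at the median, whose adipose list was 8.78. Refits without the muscle tumors and with an adipose term are given below.

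**Figure D3:**
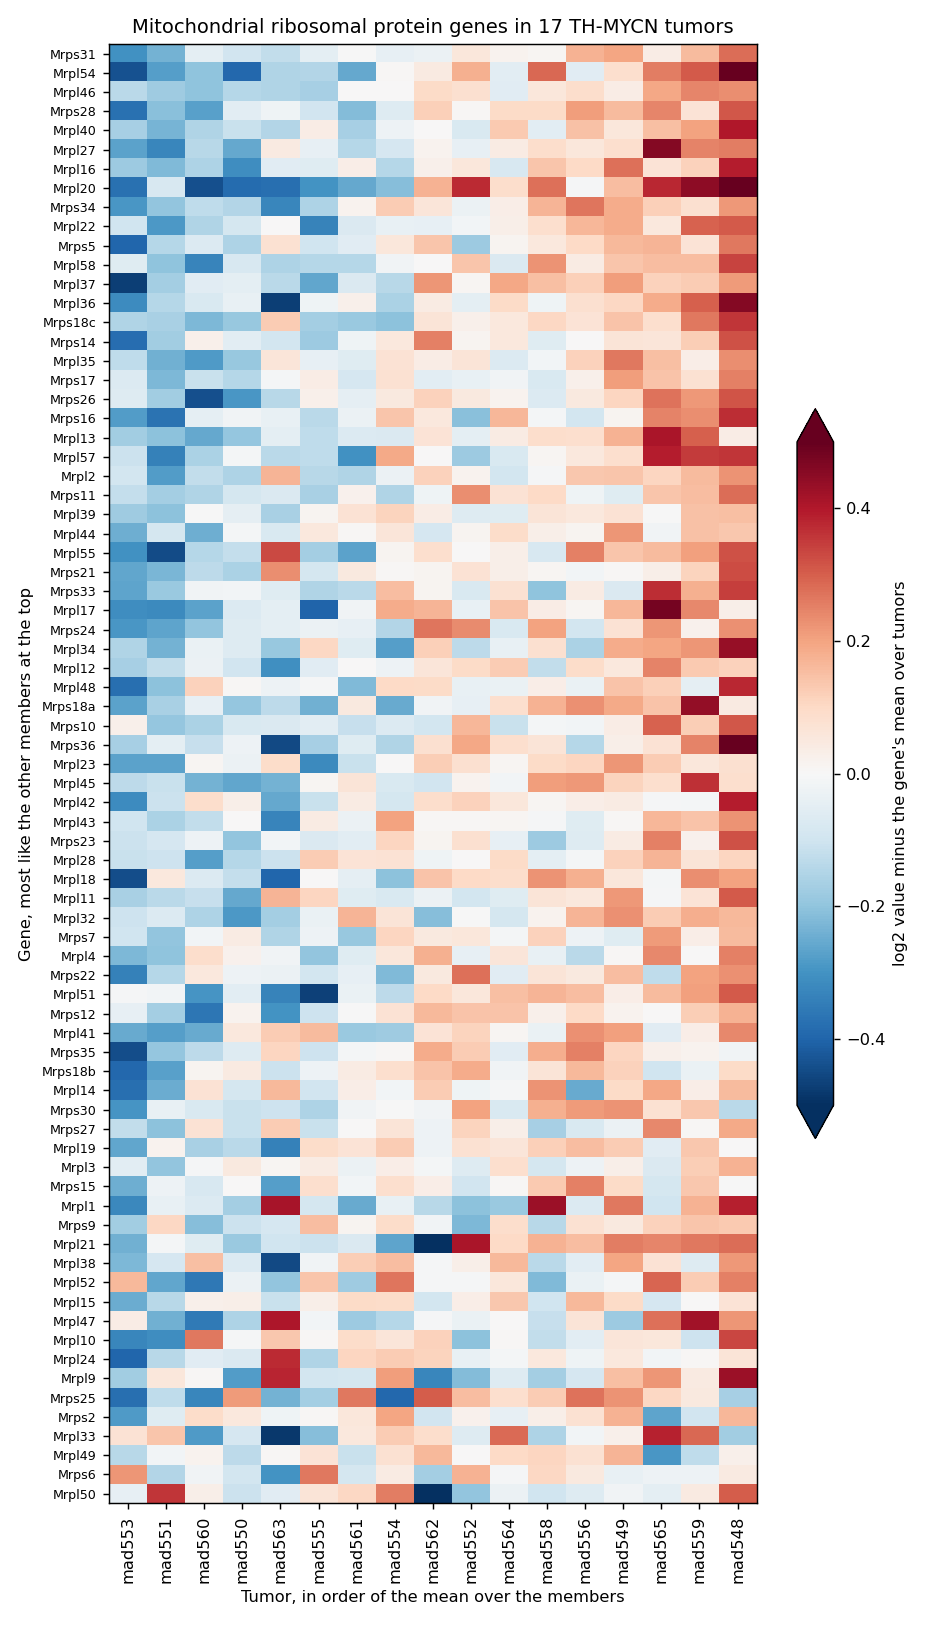
Log2 value minus the gene's mean over tumors (color, blue low and red high, limited at 0.5) for the 76 members (rows, those most like the other members at the top) and the 17 tumors (columns, ordered by the mean over members). Most rows pass from blue in mad553 to red in mad548, whereas the lowest rows, among them Mrpl50, Mrps6 and Mrpl49, do not.

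Pairs of members tended to share their order of tumors. Over all 2850 pairs of members the median Pearson r over 17 tumors was 0.46, with the middle of the pairs between 0.27 and 0.61, and 93.5% of pairs were above 0. Over pairs of the 11223 genes at or above the array median, the median r was 0.06 with 57.4% of pairs above 0, and among the 4549 genes of the top quartile it was 0.09. All pairs share the same arrays and their normalization, so the values are a description without a test. Without mad548 and mad553, the tumors of highest and lowest member mean, the median r was 0.35 for members, 0.04 for genes at or above the array median and 0.06 for the top quartile. These tumors were picked by the member mean itself, so a lower r among members follows in part from the choice.

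Within and between the subunits the values lay close together. The median r was 0.44 within the large subunit, 0.48 within the small subunit and 0.46 between them. Among members classed as bacterial homologues it was 0.43, among those classed as mitochondria-specific 0.49 and between the classes 0.46. Other gene lists gave a scale for these values. Pairs of 73 nuclear genes for oxidative phosphorylation subunits had a median r of 0.46, and pairs of 28 proliferation genes 0.53. For pairs of 47 cytosolic ribosome genes it was 0.41 and for pairs of 32 nucleolar ribosome biogenesis genes 0.32. Unlike the members, these lists were not all above the array median. Of the cytosolic ribosome genes 4 had a mean below it, and of the oxidative phosphorylation genes 1. Across lists, members had a median r of 0.41 with oxidative phosphorylation genes, 0.39 with proliferation genes, 0.26 with cytosolic ribosome genes and 0.25 with nucleolar genes.

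**Figure D4:**
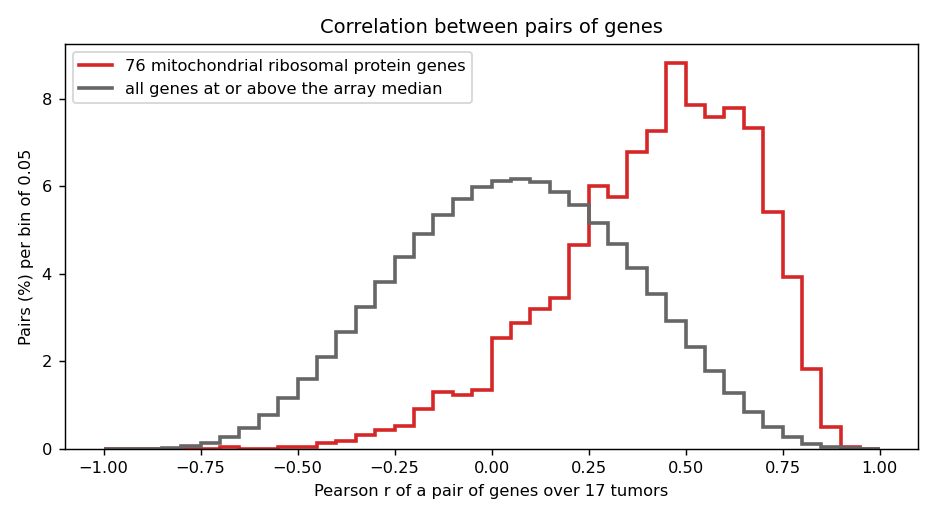
Distribution of Pearson r over 17 tumors (x axis) for pairs of genes, as a percentage of pairs per bin of 0.05 (y axis), for the 76 members (red) and for all genes at or above the array median (gray). The member pairs are centered near 0.46 and the pairs of all genes near 0.06.

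Genes that work with the mitochondrial ribosome were set beside the members in the same way. Dap3, Ptcd3, Chchd1 and Gadd45gip1, which encode ribosome proteins that go by other names, had a median r of 0.50 with the members. The 29 measured genes for assembly factors had 0.30, the 13 for translation factors 0.25, the 19 for mitochondrial tRNA synthetases 0.19, and the 16 for regulators of mitochondrial biogenesis 0.12. Among the regulators, mouse Mycn ran from 8.59 to 9.68 with a median of 9.19, and Myc from 5.31 to 6.21 with a median of 5.65. Whether the Mycn probe set also reads the transgene was not tested.

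Single members ranged widely in how well they followed the rest. The median r of a member with the mean of the other 75 was 0.70, with 59 members over 0.5 and 17 over 0.8. The closest were Mrps31 (0.92), Mrpl54, Mrpl46 and Mrps28 (0.90 each) and Mrpl40 (0.88). Under 0.3 were 5 members: Mrpl50 (-0.03), Mrps6 (0.00), Mrpl49 (0.11), Mrpl33 (0.24) and Mrps2 (0.25). Mrpl12 had an r of 0.72 and Mrps12 of 0.63.

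For several of these exceptions the probe set mattered. The second probe set of Mrpl50, of lower mean (8.62, against 10.16 for the first), had an r of 0.72 with the mean of the other members, and the second of Mrpl49 (8.83, against 9.68) had 0.70. For Mrps6 the second probe set (9.64, against 12.19) had an r of 0.40. Mrpl33 and Mrps2 each had a second probe set below the array median, with r of -0.35 and -0.07. Mrpl21 had an r of 0.46, which was 0.76 without mad562. Over the members, 54 further probe sets at or above the array median had a median r of 0.46 with the one used for their gene, and 26 below it had 0.23. In 33 members the means of the probe sets lay more than 3 apart on the log2 scale, among them Mrpl15 with 8 probe sets of which the lowest had a mean of 4.27 and the highest of 11.58.

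The 3 Mrps18 genes encode variants of a single bacterial protein, S18, that occupy different places in the ribosome. Mrps18a had a mean of 10.16 ± 0.20, Mrps18b of 10.54 ± 0.15 and Mrps18c of 11.02 ± 0.18 (SD, n = 17 tumors). Mrps18a and Mrps18c ordered the tumors alike (r = 0.69), and Mrps18b followed them less closely (0.37 with Mrps18a and 0.28 with Mrps18c); the differences between these r were not tested.

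Whether the members rose with other programs of the tumors was asked with 5 measures. These were the mean of the oxidative phosphorylation list, of the nucleolar biogenesis list, of the proliferation list and of the macrophage list, and an index of RNA integrity from the array's control probe sets (the log2 signal at the 3′ end minus that at the 5′ end of Actb and Gapdh). Every gene outside the list was regressed on the measure over the 17 tumors with limma, and p-values were adjusted over all genes tested with the Benjamini-Hochberg method. A slope is the change of a gene's log2 value for a change of 1 in the log2 measure.

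Against the oxidative phosphorylation list, which ran from 11.87 in mad553 to 12.23 in mad548, 5 of 76 members rose at an adjusted p below 0.05 in limma. Of all 18120 genes tested, 0.32% did so. None of the members fell by either p, against 0.00552% of all genes by adjusted p and 273 of the 18120 genes by unadjusted p. Slopes were positive in 74 members, with a median of 1.06, against 0.25 over all genes, and 55 members had an unadjusted p below 0.05 in the positive direction, against 10.2% of all genes. On both scales the share of members called was above that of all genes. The members were not alone in this. Of 47 cytosolic ribosome genes 3 were called, with 24 by unadjusted p in the positive direction. Of 28 proliferation genes 0 were called, with 19 by unadjusted p, and of 32 nucleolar genes 0, with 8. All values of a tumor come from 1 array, so the members and the list share its normalization.

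Mrpl54 had the largest t value, with a slope of 2.67 ± 0.49 (SE, n = 17 tumors, adjusted p = 0.033 in limma). Mrps14, a homologue of bacterial S14, had a value of 11.54 in mad553, a median of 11.93 and 12.24 in mad548. Its slope was 1.42 ± 0.26 (SE, n = 17 tumors, adjusted p = 0.033 in limma). The other 3 were Mrps5, whose bacterial homologue bears on the accuracy of decoding, Mrps28 with a slope of 1.65 and Mrpl27 with a slope of 1.69. Their adjusted p values in limma were 0.037, 0.037 and 0.038. Among ribosome proteins of other names, Chchd1 rose as well (slope 1.24, adjusted p = 0.048 in limma). No gene of the assembly factors, translation factors, tRNA synthetases or regulators passed the threshold in limma, although 6, 2, 3 and 1 of them had an unadjusted p below 0.05 in the positive direction.

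Against the proliferation list, lowest in mad553 (11.52) and highest in mad549 (12.03), 6 of 76 members rose at an adjusted p below 0.05 in limma. The share over all 18165 genes tested was 0.754%. No member fell by either p, against 0.121% of all genes by adjusted p and 632 of the 18165 genes by unadjusted p. Slopes were positive in 73 members, with a median of 0.66, against 0.05 over all genes. An unadjusted p below 0.05 in the positive direction was reached by 46 members, against 8.6% of all genes. Other lists rose with it too. Of 73 oxidative phosphorylation genes 2 were called, with 33 by unadjusted p in the positive direction. Of 47 cytosolic ribosome genes 0 were called, with 11 by unadjusted p, and of 32 nucleolar genes 0, with 7.

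Mrpl37, a mitochondria-specific protein of the large subunit, had a value of 8.78 in mad553, a median of 9.26 and 9.47 in mad562. Its slope was 1.26 ± 0.24 (SE, n = 17 tumors, adjusted p = 0.022 in limma). Mrps28, of the small subunit, had 10.39 in mad553, a median of 10.77 and 11.07 in mad548, with a slope of 1.15 ± 0.25 (SE, n = 17 tumors, adjusted p = 0.035 in limma). Mrps18a, Mrpl18, Mrps31 and Mrpl27 also rose, with slopes of 1.17, 1.16, 0.92 and 1.15 and adjusted p values from 0.041 to 0.048 in limma. Mrpl27 and Mrps28 were thus called against both measures. Tsfm, which encodes the elongation factor Ts of mitochondria, was the only gene of the translation factors to pass the threshold (slope 1.30, adjusted p = 0.022 in limma). Slopes were positive in 12 of the 13 translation factor genes, and 3 had an unadjusted p below 0.05.

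**Figure D5:**
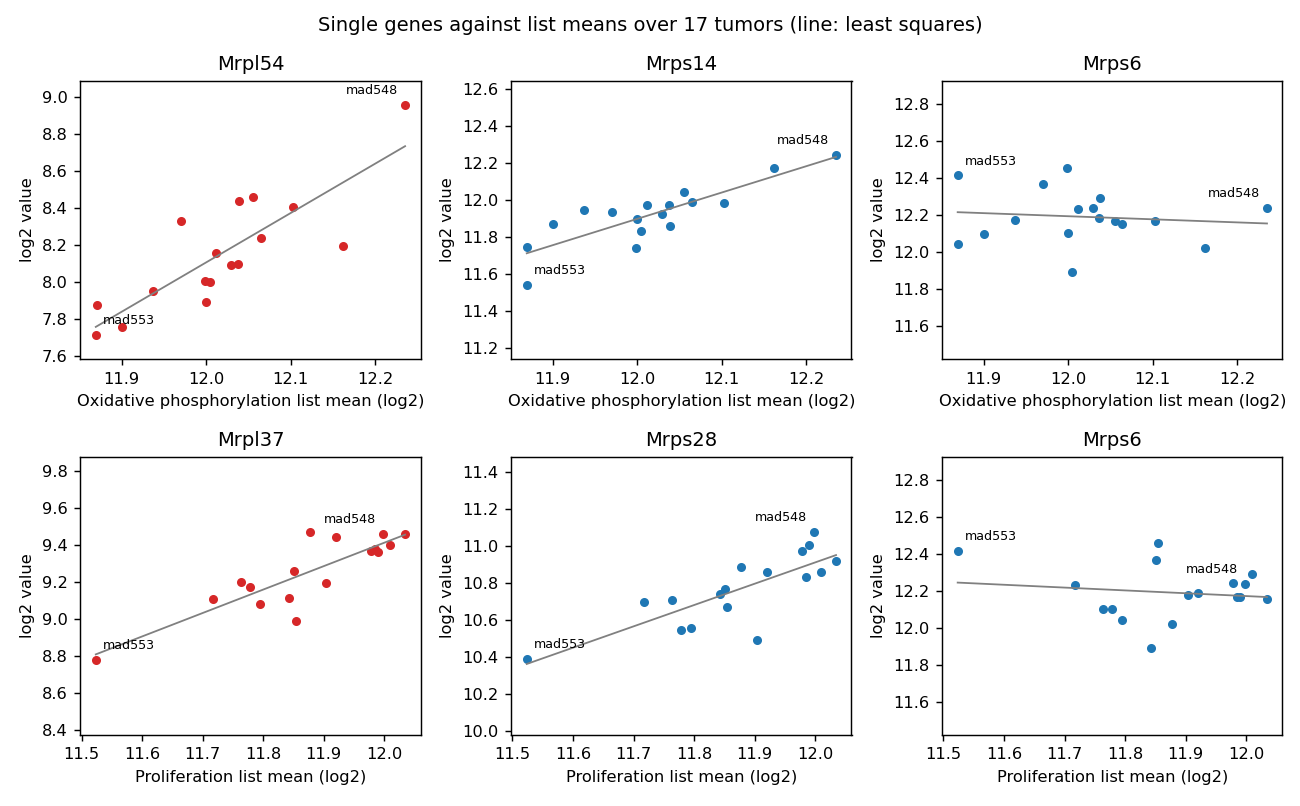
Log2 values of single members (y axis) against the mean of the oxidative phosphorylation list (upper row, x axis, log2) or of the proliferation list (lower row, x axis, log2), with 1 point per tumor and a least squares line. Mrpl54, Mrps14, Mrpl37 and Mrps28 rise from mad553, whereas Mrps6 does not, and mad553 lies apart from the other tumors on the proliferation axis.

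The calls lay close to the threshold, and the counts in limma moved with many of the tumors. Against the oxidative phosphorylation list 0 members were called without mad548, mad551, mad553, mad556 or mad561 (each left out alone), with 44 to 54 by unadjusted p. In those 5 refits the share over all genes was 0% without mad548 or mad551, 0.287% without mad553, 0.0773% without mad556 and 0.0552% without mad561. The member count was 1 without mad550 (0.0828% of all genes) or mad560 (0.0497%), 2 without mad559 (0.143%) and 3 without mad565 (0.232%). Against the proliferation list 0 members and 0.00551% of all genes were called without mad553, with 33 members by unadjusted p. The count there was 1 without mad548 (0.391% of all genes), mad556 (0.319%), mad558 (0.33%) or mad559 (0.369%). It was 2 without mad549 (0.38%), mad550 (0.424%), mad561 (0.49%) or mad564 (0.501%). Without mad551 (0.501%), mad555 (0.584%) or mad562 (0.595%) it was 3. In the other direction, with each array centered on its median, 29 members and 1.7% of all genes were called against the oxidative phosphorylation list, and 20 members and 3.71% of all genes against the proliferation list.

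Refits without the tumors of high muscle list, or with an adipose term, gave no member call, and the shares over all genes differed between them. Without the 3 tumors of high muscle list, mad549, mad550 and mad553, 0 members were called in limma against the oxidative phosphorylation list while 0.315% of all genes were, with 47 members and 8.63% of all genes by unadjusted p. Against the proliferation list 0 members and 0% of all genes were called in that refit, with 23 members and 3.36% of all genes by unadjusted p. With the adipose list as a second term, 0 members and 0% of all genes were called against the oxidative phosphorylation list, with 42 members and 10.5% of all genes by unadjusted p. Against the proliferation list that term left 0 members and 0.204% of all genes, with 29 members and 7.6% of all genes by unadjusted p.

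The other measures gave no call among the members. Against the nucleolar biogenesis list 0 of 76 members were called in limma, and 0% of all 18161 genes; the smallest adjusted p of a member was 0.21. Slopes were positive in 75 members and 20 had an unadjusted p below 0.05, against 9.49% of all genes. Against the macrophage list, which varied far more than the members (8.67 to 10.67), 0 of 76 were called, whereas 4.57% of all 18177 genes rose with it and 0.501% fell. By unadjusted p 1 member rose, Mrpl52, against 9.9% of all genes, and 1 fell, Mrpl21, against 6.06% (slope -0.30, unadjusted p = 0.021 in limma). The tumor of highest macrophage list, mad562, also held the single low value of Mrpl21 (8.97), and the slope of Mrpl21 without it is not given. Against the RNA index, which ran from 1.89 to 2.37, 0 members and 0% of all genes were called. By unadjusted p 3 members rose, against 1.9% of all genes, and 2 fell, against 5.01%.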

How the data were processed

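RNA of 17 tumors was hybridized after a two-round amplification labeling to Affymetrix mouse arrays. The deposited log2 values, 1 per probe set and array, came from RMA as run by the authors, which corrects background, equalizes the probe distributions of the arrays and summarizes probes. The submitters' processing notes name RMA and Partek 6.4, while the study's methods name MAS5 for its arrays; the range of the values fits RMA. Of 45037 probe sets other than controls, 34945 had 1 gene symbol in the platform annotation, 932 had several and 9160 were unnamed here; only the first kind was used. No further scaling was applied. Arrays carry no counts, so the number of tumors limits the precision, and nothing says whether arrays were processed in batches.

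Every gene was regressed on each of 5 measures with limma 3.58.1 (R 4.3.3; lmFit and eBayes with trend), with Benjamini-Hochberg adjustment over all genes and a threshold of 0.05, after a check on simulated data. Genes of a measure's own list were left out. Other steps used Python 3.11.15, NumPy 2.4.6, pandas 2.3.3 and SciPy 1.17.1. Alternatives covered the choice of probe sets, array centering, a filter on dim genes, tumors left out, robust estimation, ranks and the RNA index as a second term. The members and all gene lists were chosen with earlier results of these data known. Named members were the 6 of largest and 4 of smallest SD, the 3 highest and 3 lowest means, up to 2 called per measure and direction, those with probe set means over 3 apart, and Mrps18a, Mrps18b, Mrps18c, Mrpl12 and Mrps12. Others, such as Mrps5, Mrpl18, Mrpl22, Mrpl40, Mrpl46, Mrpl49, Mrpl50, Mrps36, Chchd1 and Tsfm, were named after values were seen.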

Additional observations from a re-analysis of the deposited data

How the results depend on the processing

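No paired analysis was possible because the 17 tumors formed a single group with 1 array apiece. Leaving out each tumor in turn, the 2 tumors farthest from a measure's median or mad548 with mad553, adding the adipose list as a second term, and using the unadjusted p were chosen after seeing the data.

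With the mean of all probe sets per gene the median level was 9.29. With a filter on dim genes, which raises the quartile limit, 41 members in place of 61 were in the top quartile. Without mad548 and mad553 the median r of pairs was 0.346. Leaving out each tumor in turn gave a median level of 10.54 to 10.57, 60 to 61 members in the top quartile, an SD of the member mean of 0.10 to 0.12, a median SD of 0.16 to 0.17 and a median r of 0.40 to 0.50.

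Counts called in limma are given with the share of all genes called in the same fit. Against the oxidative phosphorylation list (5 members, 0.32%) they were 3 (0.182%) with the mean of all probe sets and 29 (1.7%) with arrays centered. They were 9 (0.771%) with a filter on dim genes and 3 (0.0717%) with ranks of the measure. Without mad549, mad550 and mad553 the count was 0 (0.315%). With the adipose term it was 0 (0%), and without the 2 farthest tumors (mad548 and mad562) 0 (0%). By unadjusted p it was 55 (10.2%), and with each tumor left out 0 to 7 (0% to 0.408%). Against the proliferation list (6 members, 0.754%) they were 1 (0.501%) with the mean of all probe sets and 1 (0.8%) without probe sets that may cross-hybridize. They were 20 (3.71%) with arrays centered, 3 (0.595%) without mad562 and 0 (0.0495%) with ranks. Without the 3 tumors of high muscle list the count was 0 (0%). With the adipose term it was 0 (0.204%), and without the 2 farthest tumors (mad553 and mad554) 0 (0.00551%). By unadjusted p it was 46 (8.6%), and with each tumor left out 0 to 7 (0.00551% to 1.02%). The cause of these changes was not tested. The 0 against the nucleolar list, the macrophage list and the RNA index became 20 (9.49%), 1 (9.9%) and 3 (1.9%) by unadjusted p, and 1 (1.72%) against the macrophage list without mad550 and mad562. Each tumor left out gave 0 to 0 in all 3. The share of all genes in these refits was 0% to 0.00551%, 1.72% to 4.71% and 0% in turn.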
